A study of Mus musculus with 2 samples.

Results

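The metalloproteinases and their inhibitors described here are the 84 genes whose symbol begins with Mmp, Adam, Adamts, Adamtsl or Timp followed by a digit, out of 32589 genes in the count files. They comprise 22 Mmp, 34 Adam, 19 Adamts, 5 Adamtsl and 4 Timp genes. The names chose the members, so no measured value entered the rule. The data are single-cell RNA counts of mouse left ventricle, hypertrophied after transverse aortic constriction (TAC), an operation that narrows the aorta and so raises the pressure against which the ventricle pumps. Tissue was taken at 6 weeks after surgery, and each of 2 libraries holds a mixture of 3 hearts. The labels name wild-type mice for 1 library and p53 knockout mice for the second, and both groups had the surgery. These are called the WT-labelled and the KO-labelled library. Strain, age, sex and the deleted part of Trp53 are not given in the labels.

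Each group is 1 library, so the spread between animals could not be measured and no difference between groups was tested. The 95% intervals given here are exact and cover counting error only. Levels are in CPM, counts scaled to a fixed total of nuclear-encoded UMIs, where a UMI is 1 counted RNA molecule, summed over the cells of a class in a library. A log2 ratio is the KO-labelled over the WT-labelled library with 0.5 UMI added to each sum. Counts were not divided by gene length, so levels are compared within a gene and not between genes.

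The WT-labelled library gave 14764 cells after filtering (median 937 UMIs per cell), and the KO-labelled library 9298 (median 1567). Trp53 RNA was 38.7 CPM in the WT-labelled and 55.0 CPM in the KO-labelled library. Since the deleted part is not given, this count does not check the label. Xist was 2.37 and 929 CPM and Y-linked genes 541 and 7.34 CPM in the 2 libraries, and 105 barcodes occurred in both. Genotype, sex, depth and library cannot be told apart. The labels give the cell type as cardiomyocytes, whereas clusters, formed without the member genes, matched markers of 15 classes, and cardiomyocyte-like cells made up 32.7% and 9.28% of the libraries. RNA of 10 cardiomyocyte markers outside cardiomyocytes was higher in the WT-labelled library (8035 against 1627 CPM summed in fibroblast-like cells, all 10 detected in both). RNA of 9 activated-fibroblast genes outside fibroblasts was higher in the KO-labelled library (66.1 against 285 CPM in cardiomyocyte-like cells, all 9 detected in both). Their part in the member ratios was not tested.

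Matrix metalloproteinases (MMPs) cut collagens, gelatins and many non-matrix proteins, and most are made as inactive precursors. ADAM proteins are membrane-anchored and shed growth factors, cytokines and receptors from the cell surface. ADAMTS enzymes are secreted and act on proteoglycans, procollagens and microfibrils, while ADAMTS-like proteins lack the protease part and bind the matrix. Tissue inhibitors of metalloproteinases (TIMPs) block these enzymes, and their balance with MMPs is a classic subject of pressure-overload remodelling in the heart.

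Promoters of 6 members are shown because the results turn on these genes: Timp1, Mmp14 and Adamtsl2, which were higher in the KO-labelled library in every class that could be measured, Timp4, which was lower in every such class, and Mmp3 and Mmp12, which lie in 1 gene cluster. The sequences are the 250 bases before the annotated start, from the RefSeq promoter table (GRCm38.p6, the patch release of the mm10 build), 5′ to 3′ on the gene's strand. Capitals mark an AP-1 site, whose letters were TGACTCA in the search, or a TATA box or GC box, all searched on both strands. These motifs did not overlap, and the TATA box of Mmp12 lies after the annotated start, outside the bases shown.
Timp1 (chrX:20869916-20870165, plus strand): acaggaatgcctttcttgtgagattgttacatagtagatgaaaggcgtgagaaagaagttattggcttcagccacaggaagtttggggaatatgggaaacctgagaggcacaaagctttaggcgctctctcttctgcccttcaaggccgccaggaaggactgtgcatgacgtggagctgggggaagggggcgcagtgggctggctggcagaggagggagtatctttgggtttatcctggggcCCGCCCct
Timp4 (chr6:115252206-115252455, minus strand): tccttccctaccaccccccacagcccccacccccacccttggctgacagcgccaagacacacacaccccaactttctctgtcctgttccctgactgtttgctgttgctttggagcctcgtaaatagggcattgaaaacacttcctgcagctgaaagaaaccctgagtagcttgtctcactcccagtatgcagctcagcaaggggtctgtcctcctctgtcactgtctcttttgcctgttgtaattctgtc
Mmp14 (chr14:54431348-54431597, plus strand): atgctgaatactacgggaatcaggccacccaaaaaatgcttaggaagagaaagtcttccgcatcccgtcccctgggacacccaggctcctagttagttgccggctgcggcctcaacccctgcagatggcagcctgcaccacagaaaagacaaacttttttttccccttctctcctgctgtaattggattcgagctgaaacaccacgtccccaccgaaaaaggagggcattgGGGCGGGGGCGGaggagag
Adamtsl2 (chr2:27079129-27079378, plus strand): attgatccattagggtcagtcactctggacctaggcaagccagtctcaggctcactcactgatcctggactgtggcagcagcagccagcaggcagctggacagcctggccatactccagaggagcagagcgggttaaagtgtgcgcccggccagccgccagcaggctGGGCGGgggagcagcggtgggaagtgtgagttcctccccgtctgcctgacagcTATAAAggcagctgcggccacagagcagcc
Mmp3 (chr9:7445572-7445821, plus strand): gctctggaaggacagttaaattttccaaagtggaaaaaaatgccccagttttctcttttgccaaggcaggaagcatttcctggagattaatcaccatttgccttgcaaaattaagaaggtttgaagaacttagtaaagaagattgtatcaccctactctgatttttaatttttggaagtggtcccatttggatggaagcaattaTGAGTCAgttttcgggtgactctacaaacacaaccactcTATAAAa
Mmp12 (chr9:7347124-7347373, plus strand): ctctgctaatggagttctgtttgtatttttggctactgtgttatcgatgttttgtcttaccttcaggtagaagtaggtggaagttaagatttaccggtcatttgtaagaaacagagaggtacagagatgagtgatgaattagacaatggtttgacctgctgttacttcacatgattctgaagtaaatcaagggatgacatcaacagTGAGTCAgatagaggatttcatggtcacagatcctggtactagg

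The table held promoter windows of 250 bases before to 50 after the start for 53 of the 84 members. Some members have more than 1 start, so these are 58 windows. An AP-1 site occurred in 9 of the 58 (15.5%), against 5.2% of all 32851 windows in the table. A TATA box, searched as TATAAA, occurred in 15 of the 58 (25.9%), against 13.6% of all windows. The letters of a GC box, GGGCGG, occurred in 27 of the 58 (46.6%), against 35.7% of all windows. Timp1, Timp2, Timp3 and Mmp14 had a GC box and neither of the other motifs, Adamtsl2 had a TATA box and a GC box, and Timp4 had none of the 3. The Mmp genes on chromosome 9 (Mmp13, Mmp12, Mmp1b, Mmp3, Mmp10, Mmp8, Mmp27, Mmp20 and Mmp7) are 9 of the 22 Mmp members and lie in 1 stretch at chr9:7272514-7699585. Of these 9, 6 had an AP-1 site, 8 a TATA box and 0 a GC box. They are thus 6 of the 9 members with an AP-1 site and 8 of the 15 with a TATA box. The AP-1 and TATA shares of the members rest in large part on this 1 stretch of related genes, and shares without it are not given here. Mmp12 has another annotated start further upstream, in whose window none of these motifs occurred. A p53 response element (2 half-sites at most 13 bases apart, no mismatch allowed) occurred in 0 of the 53 members' windows and in 0.0731% of all windows. At so low a share a count of 0 is likely for any set of this size. Sites outside the windows were not searched, so the count cannot show whether members are p53 targets.

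Of the 84 members, 6 had no UMI in kept cells (Adam1b, Adam20, Adam24, Adam25, Adam34l and Adam6a, named for their count alone), 11 had 1 to 19 UMIs, 67 had at least 20 and 35 had at least 500. Together the members gave 53366 UMIs in the WT-labelled and 99029 in the KO-labelled library, 0.325% and 0.535% of nuclear-encoded UMIs. The TIMPs contributed 10331 and 28302 of these UMIs, the ADAMTS enzymes 20908 and 31343, and the MMPs 4964 and 9285. Totals over all cells mix level with class make-up, since cardiomyocyte-like cells were 32.7% and 9.28% of the libraries. Members summed to 1765 and 2049 CPM in those cells and 5849 and 7944 in fibroblast-like cells. The sums were 3678 and 7042 CPM in vascular endothelial-like, 3283 and 4399 in endocardial-like and 2538 and 2987 in macrophage-like cells. Expression was divided among cell classes, as the heat map of levels shows. By the mean level over the libraries in which a class had at least 20 cells, fibroblast-like cells were highest for 10 of the 18 Adamts genes that reached 20 UMIs in a class, and for 6 of 15 Mmp genes. Monocyte or dendritic-like (19 WT-labelled cells) and neutrophil-like cells (0) entered this ranking with their KO-labelled level alone. Schwann-like cells (6 KO-labelled cells) entered with their WT-labelled level alone, so these classes are not ranked on the same libraries as the others. No Timp gene had its highest mean level in fibroblast-like or cardiomyocyte-like cells.

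**Figure D1:**
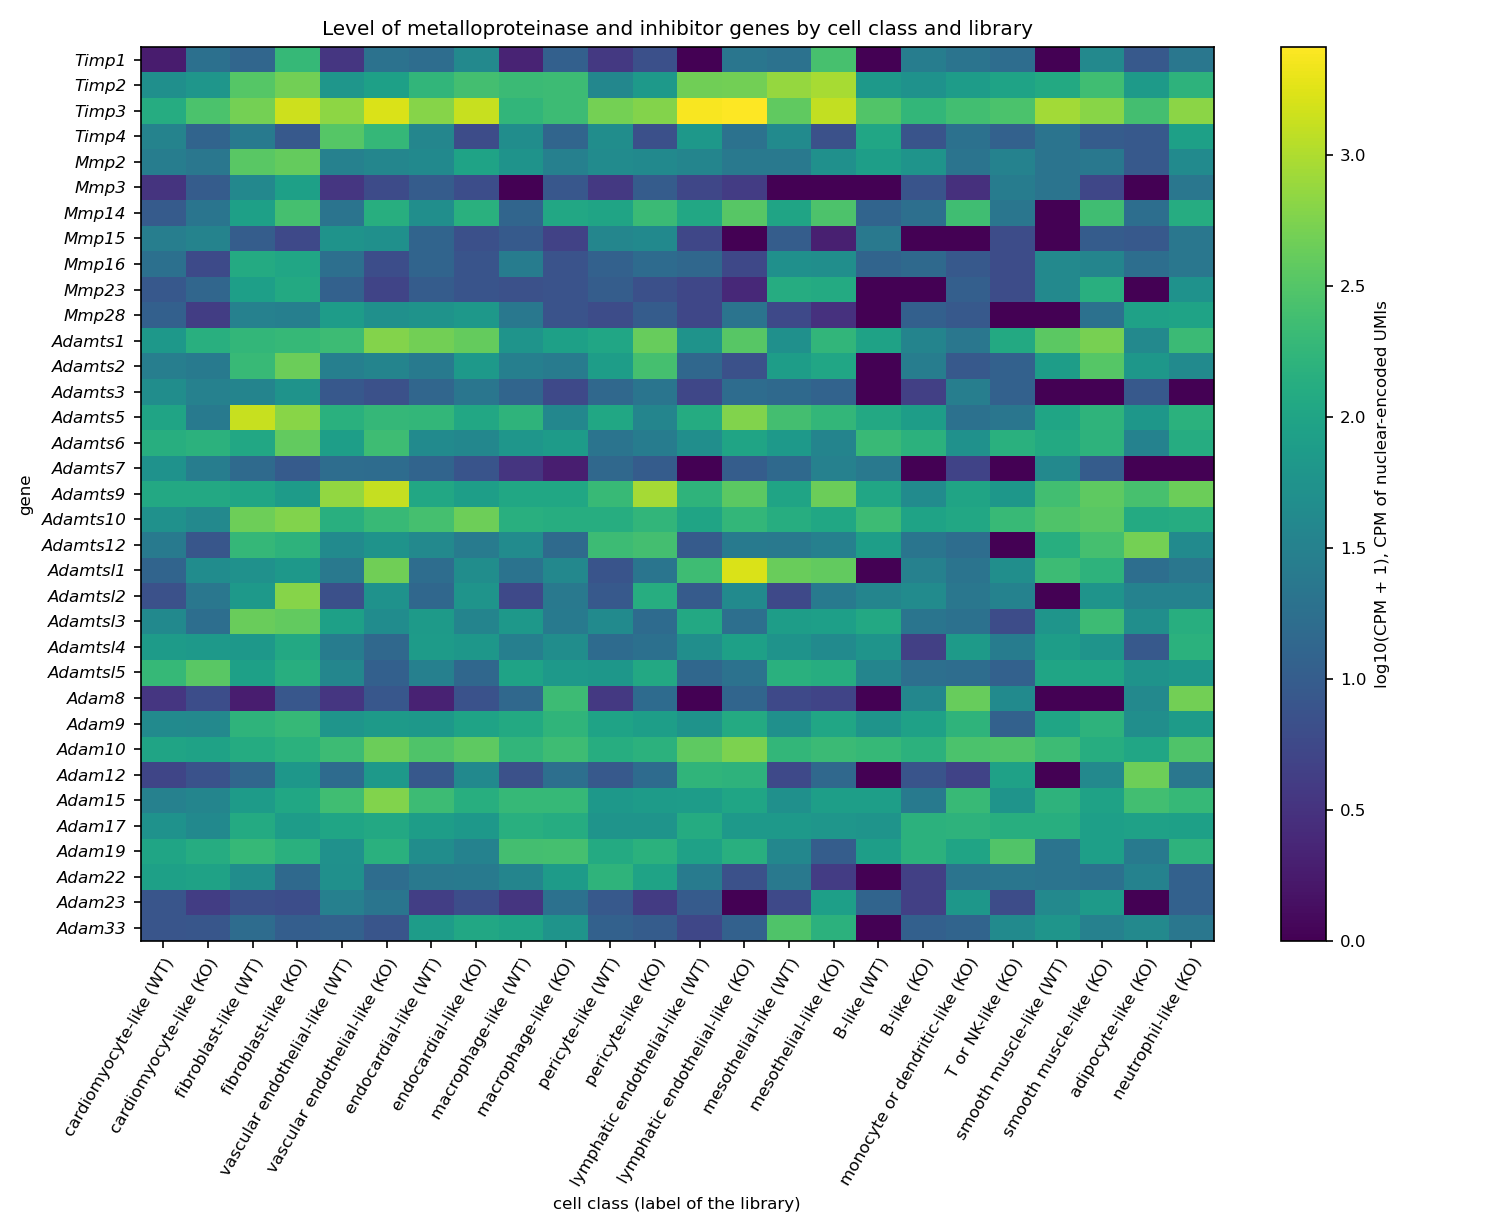
Level of each of the 35 members with at least 500 UMIs (rows) in each cell class with at least 50 cells in the library (columns, WT for the WT-labelled and KO for the KO-labelled library), as log10 of CPM plus 1. Timp3 is bright across vessel-lining classes and most so in lymphatic endothelial-like cells, Adamts5 in fibroblast-like cells, Adamts9 in vascular endothelial-like cells, and Adam8 in monocyte or dendritic-like and neutrophil-like cells.

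Over all cells 19 of 67 members were at least 2-fold higher (28.4% against 12% of all genes) and 3 at least 2-fold lower (4.48% against 10.9%). Class make-up differed between the libraries, and its part in these all-cell counts was not tested. Among members with at least 20 UMIs in a class, more were higher by 2-fold in the KO-labelled library than the share of all genes in the 5 largest classes. In fibroblast-like cells 14 of 52 members (26.9%) were at least 2-fold higher, against 6.41% of all genes, and 5 (9.62%) at least 2-fold lower, against 11.6%. In vascular endothelial-like cells 14 of 44 were higher (31.8% against 6.25%) and 4 lower (9.09% against 12.3%). In endocardial-like cells 11 of 43 were higher (25.6% against 6.42%) and 4 lower (9.3% against 11.2%); with median-of-ratios scaling these were 11 and 2. In macrophage-like cells 8 of 32 were higher (25% against 8.23%) and 6 lower (18.8% against 12%). In cardiomyocyte-like cells 10 of 45 members were higher (22.2% against 4.29%) and 10 lower (22.2% against 15.8%). In macrophage-like and cardiomyocyte-like cells the lower share was thus also above that of all genes. The libraries' cardiomyocyte-like cells lay mostly in different clusters: 2648 and 111 cells in cluster 2, 1361 and 34 in cluster 7, 778 and 310 in cluster 9, and 45 and 408 in cluster 14. Other large classes were divided in a like way. Fibroblast-like cells were 3051 and 294 in cluster 0 and 105 and 1526 in cluster 5. Vascular endothelial-like cells were 2384 and 536 in cluster 1 and 281 and 1319 in cluster 6. Endocardial-like cells were 1624 and 343 in cluster 3 and 23 and 1335 in cluster 8. The part of cluster make-up in the counts of members was not tested. The median log2 ratio of members was 0.24 in fibroblast-like cells (all genes -0.11), 0.38 in vascular endothelial-like cells (-0.09), 0.10 in endocardial-like cells (-0.11), 0.16 in macrophage-like cells (-0.04) and 0.02 in cardiomyocyte-like cells (-0.26). Members passed the minimum of 20 UMIs partly through the library in which they were high, and genes are not replicates, so these shares are descriptions. Smaller classes were counted the same way. Of 23 members in pericyte-like cells 5 were higher (21.7% against 5.51%) and 3 lower (13% against 12%). Of 20 members in lymphatic endothelial-like cells 8 were higher (40% against 8.53%) and 2 lower (10% against 9.13%). Of 26 members in mesothelial-like cells 8 were higher (30.8% against 12.2%) and 1 lower (3.85% against 13.3%). Smooth muscle-like cells had 5 of 19 higher (26.3% against 18.3%) and 0 lower (13.8% of all genes), and B-like cells 1 of 11 higher (9.09% against 15.2%) and 2 lower (18.2% against 12.5%). In clusters that held at least 5% of the class in each library, 6 of 43 members were at least 2-fold higher in fibroblast-like cells (cluster 0 alone), 5 of 34 in endocardial-like cells (cluster 3 alone) and 4 of 27 in macrophage-like cells. The share of all genes in those same clusters is not given here, so these counts cannot be set against it.

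**Figure D2:**
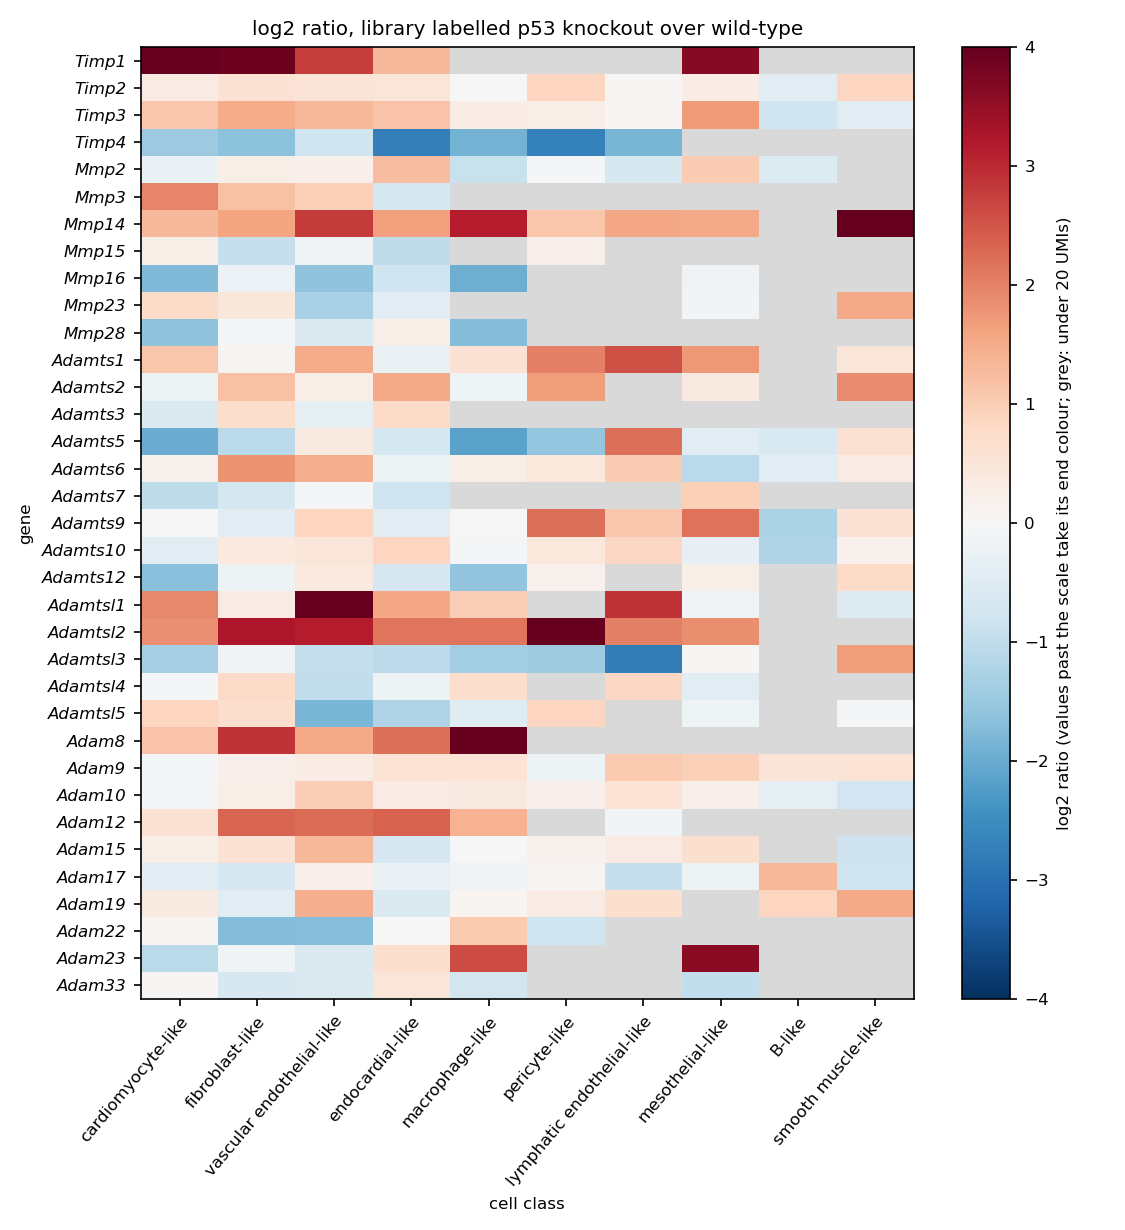
Log2 ratio of the KO-labelled over the WT-labelled library for the 35 members with at least 500 UMIs (rows) in the 10 classes with at least 50 cells in each library (columns); red is higher and blue lower in the KO-labelled library, and grey marks fewer than 20 UMIs. The rows of Timp1, Mmp14 and Adamtsl2 are red in every class measured, and the row of Timp4 is blue in every class measured.

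The 4 TIMPs split into 3 that were higher over all cells in the KO-labelled library and 1 that was lower. Timp1, an inducible inhibitor that blocks most secreted MMPs, was 5.6 CPM (interval 4.52 to 6.87) in the WT-labelled and 74.8 CPM (70.9 to 78.9) in the KO-labelled library. Its log2 ratio was positive in 5 of 5 classes measured (at least 50 cells in each library and 20 UMIs of the gene), from 1.31 in endocardial-like to 4.30 in cardiomyocyte-like cells, each with its interval above 0. In fibroblast-like cells Timp1 was 12.5 and 191 CPM, a log2 ratio of 3.92 (3.50 to 4.42). Mesothelial-like cells, which line the surface of the heart, reached 18.4 and 257 CPM on 4 and 253 UMIs. The cardiomyocyte-like level rested on 5 and 39 UMIs, and the activated-fibroblast genes in the same cells were higher in the same library, as given above.

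Timp1 differed more between fibroblast-like clusters than within the activated one. Fibroblast-like cells fell into cluster 0, which held 3051 and 294 cells of the 2 libraries, cluster 5 with 105 and 1526, and cluster 15.1 with 0 and 76. Cluster 5 was led by Cilp, Postn and Comp, and the 9 activated-fibroblast genes summed to 174 and 489 CPM in cluster 0 and to 2813 and 4474 CPM in cluster 5. In cluster 0 Timp1 was 5.14 CPM (3 to 8.23) and 40.0 CPM (24.1 to 62.5). In cluster 5 it was 183 CPM (119 to 268) and 209 CPM (194 to 225), so the intervals of the libraries overlapped there. In cluster 15.1, led by Col11a1, Col1a1 and Thbs1, it was 242 CPM in the KO-labelled library.

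Timp3 is bound to the matrix and also inhibits ADAM and ADAMTS enzymes such as ADAM17. Its level was 399 and 1137 CPM over all cells, and fibroblast-like, vascular endothelial-like and endocardial-like cells held 26.7%, 25% and 21.3% of its UMIs as means of the 2 libraries. Lymphatic endothelial-like cells had the highest level, 2409 and 2572 CPM, with a log2 ratio of 0.09 (-0.04 to 0.23). In the other large classes the KO-labelled library was higher, by a log2 ratio of 1.47 (1.40 to 1.55) in fibroblast-like, 1.32 (1.24 to 1.40) in vascular endothelial-like and 1.13 (1.04 to 1.23) in endocardial-like cells. The ratio was near 0 in macrophage-like cells (176 and 215 CPM, 0.29, interval -0.01 to 0.60) and below 0 in B-like cells (-0.80, -1.48 to -0.06). Timp3 was higher in the KO-labelled library within fibroblast-like clusters 0 and 5, at 501 and 957 CPM in cluster 0 and 556 and 1523 CPM in cluster 5 (105 and 1526 cells). Timp1 was higher there in cluster 0 as well, but its intervals overlapped in cluster 5. Timp3 values of 1375 and 5733 CPM were found in vascular endothelial-like cluster 19, a small group of 56 and 54 cells led by Sema3g, Sox17 and Gja5, genes of arterial endothelium.

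Timp2 inhibits MMPs and at the same time helps MMP14 activate pro-MMP2. It was highest in mesothelial-like cells (746 and 920.2 CPM) and moderate in fibroblast-like cells (325 and 486 CPM). Among the 5 largest classes its log2 ratios ran from 0.02 (-0.27 to 0.31) in macrophage-like to 0.58 (0.47 to 0.69) in fibroblast-like cells.

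Timp4, an inhibitor long known for its expression in the heart, was a vascular endothelial gene in these data. Vascular endothelial-like cells held 71.4% of its UMIs and had 324 CPM (302 to 348) in the WT-labelled and 187 CPM (172 to 203) in the KO-labelled library. The ratio was negative in 7 of 7 classes measured, with each interval below 0, from -0.79 in vascular endothelial-like to -2.74 in endocardial-like cells. Between the 2 large vascular clusters it was 343 and 289 CPM in cluster 1 (2384 and 536 cells) and 269.6 and 175 CPM in cluster 6 (281 and 1319 cells), and the intervals of the libraries overlapped in cluster 1 (318 to 370.1 against 243 to 342). Outside endothelium its levels were low, for example 24.7 and 7.87 CPM in fibroblast-like and 46.3 and 12.1 CPM in macrophage-like cells. In those same cells the 10 vascular endothelial markers, all detected in both libraries, also summed to less in the KO-labelled library (1595 against 875 CPM in fibroblast-like, 2562 against 1348 CPM in macrophage-like cells). Their part in the Timp4 ratio was not tested. Timp1, Timp3 and Timp4 lie within Syn1, Syn3 and Syn2 on the opposite strand. Whether the counting used strand is not given in the sources used here, so reads of the partners could not be told apart. Syn1 had 48 and 81 UMIs in the 2 libraries, against 92 and 1386 for Timp1. Syn3 had 367 and 482, against 6556 and 21065 for Timp3. Syn2 had 202 and 233, against 1256 and 745 for Timp4. Adamts4, Adamts7, Adamts9, Adam17, Mmp12 and Mmp28 also overlap genes on the opposite strand, and Timp2 overlaps Cep295nl on its own strand, so their counts are uncertain in the same way.

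Among the membrane-type MMPs, Mmp14 stood out. MMP14 cuts fibrillar collagen at the cell surface and activates pro-MMP2. Its level was 37.7 CPM (34.8 to 40.8) over all WT-labelled cells and 165 CPM (159 to 171) over all KO-labelled cells. It was higher in the KO-labelled library in 9 of 9 classes measured, with every interval above 0. In fibroblast-like cells it was 85.8 and 255 CPM (log2 ratio 1.57, 1.38 to 1.76), in vascular endothelial-like cells 19.3 and 134 (2.78, 2.36 to 3.26), and in macrophage-like cells 11.9 and 110.4 (3.15, 2.29 to 4.32). Smooth muscle-like cells had 0 UMIs in the WT-labelled library, where 3 UMIs would be 59.3 CPM, and 52 UMIs (229 CPM) in the KO-labelled library. Of these cells 1 and 60 lay in cluster 15.2, 28 and 26 in cluster 15.3, and 25 and 13 in cluster 15.4. The difference was present within clusters that both libraries shared: 84.1 and 282 CPM in fibroblast-like cluster 0, 20.3 and 79.1 in vascular cluster 1, and 47.3 and 215 in endocardial-like cluster 3.

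The other membrane-type genes did not share that pattern. Mmp16 was mainly a fibroblast gene (121 and 104 CPM), and its ratio was negative in 6 of 6 classes measured, with 4 intervals below 0 and the lowest value -1.94 in macrophage-like cells. Mmp15 was highest in vascular endothelial-like cells at 55.1 and 50.2 CPM (log2 ratio -0.14, -0.48 to 0.21). Mmp23 was 129 and 121 CPM in mesothelial-like and 84.1 and 115 CPM in fibroblast-like cells.

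Of the gelatinases, which degrade denatured collagen, Mmp2 was fibroblast-derived and nearly level, whereas Mmp9 was scarce. Fibroblast-like cells held 71.3% of Mmp2 UMIs, with 342 and 401 CPM and a log2 ratio of 0.23 (0.12 to 0.34). Endocardial-like cells showed a wider difference, 40.4 and 94.9 CPM (1.22, 0.87 to 1.61). Their activated-fibroblast genes also differed, at 518 and 2126 CPM summed (1 of 9 at 0 in the WT-labelled library), and the 10 fibroblast markers summed to 3221 and 3544 CPM there. Mmp9 had 138 UMIs in all and was 509.9 CPM (48 UMIs) in neutrophil-like cells, a class of 87 cells, all in the KO-labelled library. In macrophage-like cells it had 17 UMIs in the WT-labelled and 1 in the KO-labelled library.

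The 9 Mmp genes clustered on chromosome 9 together gave 327 and 1027 UMIs in the WT-labelled and KO-labelled library. Mmp3 (stromelysin-1) was a fibroblast gene, with 78.2% of its UMIs in fibroblast-like cells and 38.6 and 87.1 CPM there (log2 ratio 1.17, 0.88 to 1.47). It was higher in the KO-labelled library in cluster 5 (28.1 on 4 UMIs and 102 CPM) whereas in cluster 0 the value was the lower one (39 and 23.2 CPM), and in cluster 0 the intervals overlapped (32.6 to 46.4 and 11.6 to 41.5). Mmp12 (macrophage elastase) was 13 and 213 CPM in macrophage-like cells (log2 ratio 3.97, 3.17 to 5.05). In monocyte or dendritic-like cells, of which the WT-labelled library held 19 and the KO-labelled 263, the order was the reverse, 583 CPM on 19 UMIs and 166 CPM on 85 UMIs (-1.84, -2.54 to -1.01). Mmp8 (neutrophil collagenase) had 0 UMIs in the WT-labelled library, where 3 UMIs would be 0.183 CPM, and 44 UMIs (2.38 CPM) in the KO-labelled library, of which 20 were in monocyte or dendritic-like, 8 in neutrophil-like and 8 in endocardial-like cells. Mmp13 and Mmp27, neighbours named after their values were seen, were also counted in macrophage-like cells. Mmp13 was 20.2 and 24.1 CPM there (0.24, -0.68 to 1.23), and Mmp27 had 0 UMIs in the WT-labelled library, where 3 UMIs would be 3.56 CPM, and 27 UMIs (25.1 CPM) in the KO-labelled library.

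The highest myeloid levels were in clusters that were almost absent from the WT-labelled library. Macrophage-like cluster 12.0, led by Gpnmb, Lgals3, Arg1 and Spp1, held 3 and 122 cells, and its 7 lipid-associated macrophage genes summed to 4143 CPM in the KO-labelled library. There Mmp12 was 782 CPM (677 to 899) and Mmp27 70.8 CPM. In cluster 4.3, rich in the resident-type macrophage genes Cd163, F13a1 and Mrc1 and shared by the libraries (111 and 150 cells), Mmp12 had 0 and 1 UMIs. In cluster 4.0 (325 and 70 cells) it had 10 and 0 UMIs. Adam8, which sheds adhesion molecules and marks activated leukocytes, was also high there and in monocyte or dendritic-like cells. It was 13 and 220.0 CPM in macrophage-like cells (4.01, 3.21 to 5.10), 641 CPM in cluster 12.0, 411 CPM in monocyte or dendritic-like and 489 CPM in neutrophil-like cells of the KO-labelled library. In clusters of both libraries Adam8 had 2 and 25 UMIs (cluster 4.2, with 54 and 265 cells) and 0 and 14 UMIs (cluster 4.3). Mmp14 followed with 259 CPM in cluster 12.0, against 0 and 8 UMIs in cluster 4.3. Adam19, in contrast, was 306 and 430.2 CPM in cluster 4.3 and 59 CPM in cluster 12.0.

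**Figure D3:**
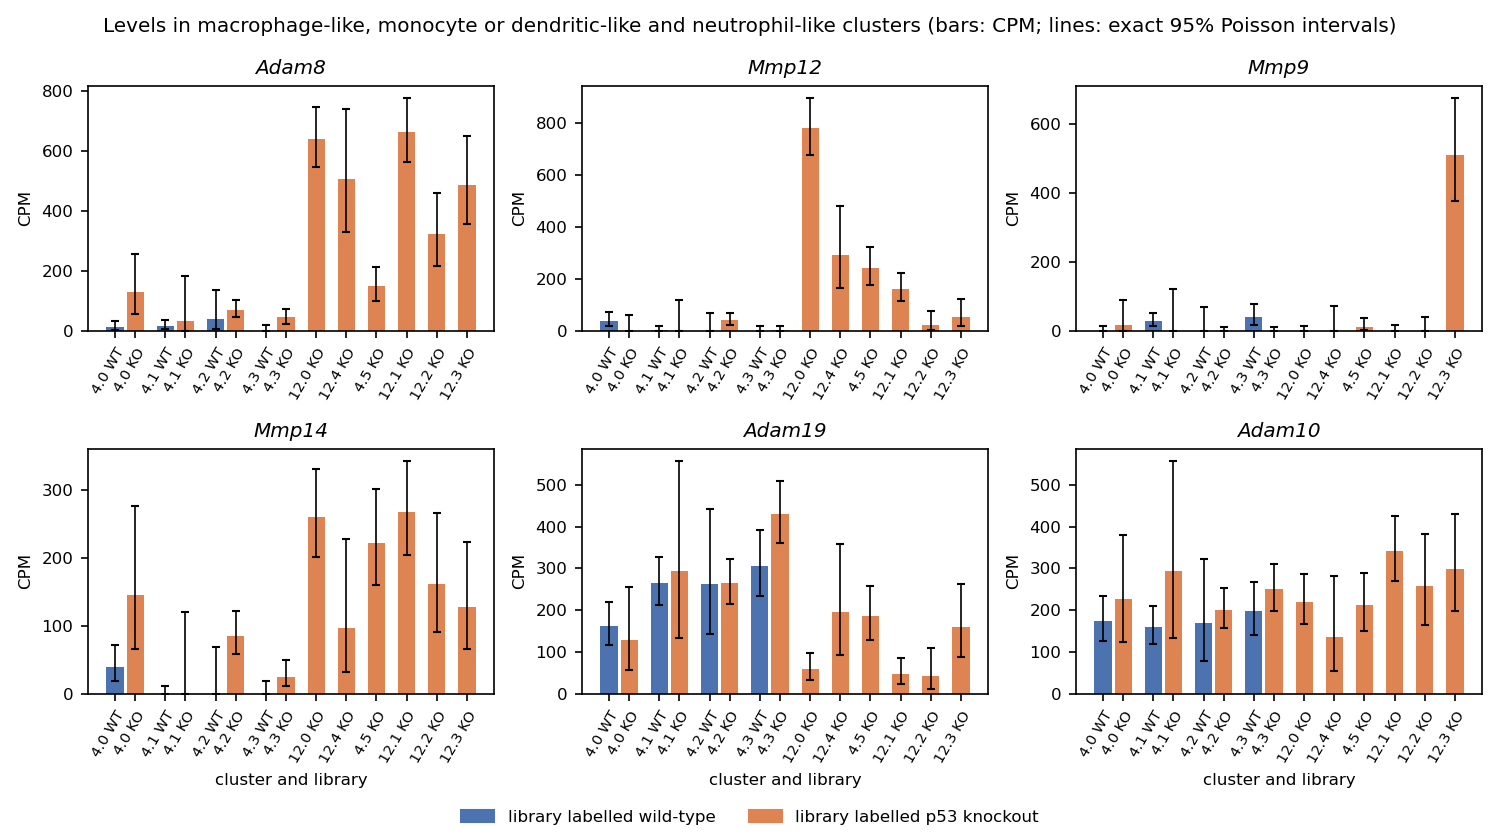
Level in CPM of 6 members in each macrophage-like cluster (4.0 to 4.3, 12.0, 12.4), monocyte or dendritic-like cluster (4.5, 12.1, 12.2) and the neutrophil-like cluster (12.3), with blue bars for the WT-labelled and orange for the KO-labelled library and lines for exact 95% Poisson intervals; bars need at least 20 cells. Mmp12 peaks at 782 CPM in cluster 12.0 and Mmp9 at 509.9 CPM in cluster 12.3, and neither cluster has a bar for the WT-labelled library.

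The aggrecanase and versicanase group (ADAMTS1, 4, 5, 8, 9, 15 and 20) cuts large proteoglycans of loose matrix, and its members went in both directions. Adamts5 was the main fibroblast member, with 66.1% of its UMIs in fibroblast-like cells. It was 1346 CPM (1308 to 1386) in the WT-labelled and 635 CPM (611 to 659.9) in the KO-labelled library, a log2 ratio of -1.08. This order held in cluster 0 (1387 and 993 CPM) and was turned in cluster 5 (401 and 619 CPM), where both libraries were lower than in cluster 0. In cluster 15.1 Adamts5 was 156 CPM. In lymphatic endothelial-like cells it was higher in the KO-labelled library, at 124 and 581 CPM (2.21, 1.69 to 2.83). In cardiomyocyte-like and macrophage-like cells the levels were 97.5 and 24.5 CPM and 164 and 37.1 CPM, and the 10 fibroblast markers were also lower there in the KO-labelled library (1446 against 1137 and 2201 against 1230 CPM summed, all 10 detected). Their part in those ratios was not tested.

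Adamts9 and Adamts1 were genes of vessel-lining and vessel-wall cells. Adamts9 was 713 and 1287 CPM in vascular endothelial-like cells (log2 ratio 0.85, 0.77 to 0.93), and those cells held 58% of its UMIs. Pericyte-like cells, which wrap capillaries, showed a wider difference for Adamts9, 197 and 904 CPM (2.20, 1.91 to 2.49). Adamts1 was 216 and 601 CPM in vascular endothelial-like (1.48, 1.34 to 1.62), 103 and 415 in pericyte-like and 487 and 398 in endocardial-like cells, where the ratio was slightly negative (-0.29, -0.41 to -0.17). Within endocardial-like cluster 3 Adamts1 was 492 and 681 CPM, the opposite order. Cluster 8, which held 1335 of the 1678 KO-labelled endocardial-like cells, had 353 CPM. The arterial cluster 19 reached 835 and 2559.7 CPM.

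Adamts4, Adamts8 and Adamts15 were low in the WT-labelled library and higher in the KO-labelled library. Adamts4 had 3 and 76 UMIs in vascular endothelial-like cells (1.23 and 23.8 CPM; log2 ratio 4.06, 2.67 to 6.58). Adamts8 was 2.06 and 39.8 CPM in the same cells (4.14, 3.01 to 5.92). In endocardial-like cluster 3 Adamts8 was 9.57 and 271 CPM, whereas cluster 8 had 2.3 CPM in the KO-labelled library. Adamts15 was 8.99 and 49.2 CPM in fibroblast-like cells (2.43, 1.90 to 3.05), and in the KO-labelled library it was 40.0 CPM (24.1 to 62.5) in cluster 0 and 54.1 CPM (46.5 to 62.6) in cluster 5. Adamts20 was lower in fibroblast-like cells, 13.9 and 4.18 CPM (-1.71, -2.63 to -0.91), and higher in cardiomyocyte-like cells, 3.4 and 10.7 CPM on 21 and 24 UMIs (1.65, 0.74 to 2.57).

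The procollagen N-proteinases trim fibrillar collagens before they assemble, and Adamts2 was the most counted of the 3. In fibroblast-like cells Adamts2 was 195 CPM (181 to 211) and 441 CPM (421 to 462), a log2 ratio of 1.18 (1.05 to 1.31), and it was higher in the KO-labelled library in both cluster 0 (191 and 413 CPM) and cluster 5 (302 and 449 CPM). Pericyte-like cells showed the same direction (79.3 and 256 CPM). Adamts3 was 33.6 and 54.9 CPM in fibroblast-like and 45.8 and 30.3 CPM in cardiomyocyte-like cells, with log2 ratios of 0.70 and -0.59. Adamts14 was 11 and 4.67 CPM in fibroblast-like cells, on 38 and 19 UMIs, and 4.44 and 4.81 CPM over all cells (0.11, -0.35 to 0.58).

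Adamts6 and Adamts10, relatives that act on fibrillin microfibrils, differed in size. Adamts6 was 109.9 and 384 CPM in fibroblast-like cells (log2 ratio 1.80, 1.64 to 1.97). It separated the clusters: 100.4 and 177 CPM in cluster 0 against 330.5 (243 to 439) and 413 CPM (392 to 436) in cluster 5, where the intervals overlapped. In cardiomyocyte-like cells Adamts6 was 137 and 154 CPM (0.16, -0.02 to 0.34). Adamts10 was 447 and 588 CPM in fibroblast-like and 250.1 and 450.0 CPM in endocardial-like cells, with log2 ratios of 0.40 (0.30 to 0.49) and 0.85 (0.70 to 1.0). Adamts7 and Adamts12, which degrade cartilage oligomeric matrix protein, were not 2-fold higher in the KO-labelled library in any of the 5 largest classes. Adamts7 was 54.6 and 26.7 CPM in cardiomyocyte-like cells (-1.02, -1.45 to -0.63). Adamts12 was 185 and 161 CPM in fibroblast-like cells and at least 2-fold lower in the KO-labelled library in cardiomyocyte-like and macrophage-like cells. Of its 8 classes measured, 4 had the interval below 0 and 1 above. The Adamts12 log2 ratios ran from -1.67 in cardiomyocyte-like to 0.77 in smooth muscle-like cells.

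**Figure D4:**
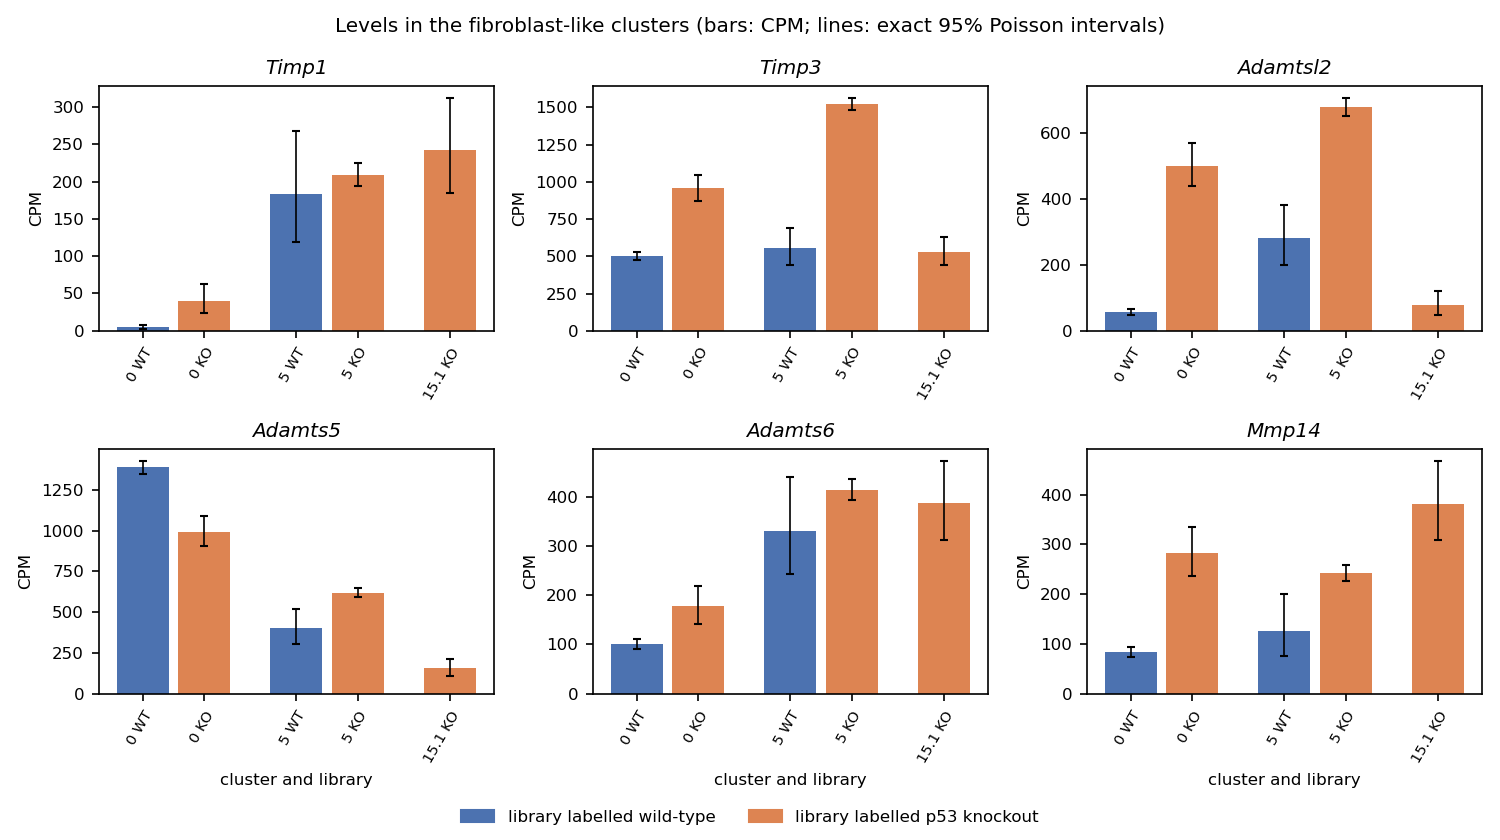
Level in CPM of 6 members in fibroblast-like clusters 0, 5 and 15.1, with blue bars for the WT-labelled and orange for the KO-labelled library and lines for exact 95% Poisson intervals; cluster 15.1 had no WT-labelled cell. Timp1 and Adamts6 are higher in cluster 5 than in cluster 0 in both libraries. Within cluster 0 both also have the higher bar in the KO-labelled library, and within cluster 5 their intervals overlap. Timp3, Adamtsl2 and Mmp14 are higher in the KO-labelled library within each of clusters 0 and 5.

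The ADAMTS-like proteins, which have no protease part, held 2 of the widest differences. ADAMTSL2 binds latent TGF-beta binding proteins and fibrillin. Adamtsl2 was a fibroblast gene (75.5% of its UMIs) at 66.4 CPM (58.1 to 75.6) and 623 CPM (599 to 648), a log2 ratio of 3.23 (3.03 to 3.43). It was positive in 8 of 8 classes measured, with 7 intervals above 0, from 1.83 in cardiomyocyte-like to 3.98 in pericyte-like cells. Adamtsl2 was higher in the KO-labelled library both within cluster 0 (57.2 and 502 CPM) and within cluster 5 (281 and 679.7 CPM), and it was low in the collagen-rich cluster 15.1 (78.1 CPM). Its levels outside fibroblast-like cells were small, such as 5.76 and 53 CPM in vascular endothelial-like cells, where activated-fibroblast genes summed to 114 and 354 CPM.

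Adamtsl1 was an endothelial and mesothelial gene. In vascular endothelial-like cells it was 23 CPM on 56 UMIs and 466 CPM on 1488 UMIs, a log2 ratio of 4.33 (3.95 to 4.75). The level depended on the cluster, 19.3 and 144 CPM in cluster 1 and 42.8 and 541 CPM in cluster 6, but the KO-labelled library was higher in both. Lymphatic endothelial-like cells were higher still, 226 and 1673 CPM (2.88, 2.49 to 3.31). Mesothelial-like cells had 433 and 390.0 CPM and fibroblast-like cells 51.9 and 65.7 CPM, with log2 ratios of -0.16 and 0.34. Endocardial-like and cardiomyocyte-like cells lay between, with log2 ratios of 1.56 and 1.92. Adamtsl1 overlaps Sh3gl2 on the same strand.

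The remaining ADAMTS-like genes were closer to level in fibroblast-like cells. Adamtsl3 was 426 and 389 CPM in fibroblast-like cells (-0.13, -0.23 to -0.03) and was negative in 7 of 9 classes measured. Adamtsl4, a fibrillin-binding protein, was 65.3 and 112 CPM in fibroblast-like and 72.6 and 69 CPM in cardiomyocyte-like cells. Adamtsl5 had the largest share of UMIs in cardiomyocyte-like cells among members with at least 500 UMIs (54.8%), at 189.8 and 341 CPM (0.85, 0.71 to 0.98). Within cardiomyocyte-like cells Adamtsl5 was 417 CPM in cluster 14, which held 408 of the 863 KO-labelled cells, and 107 and 105 CPM in cluster 9, which is rich in mitochondrial RNA and Nppa. In vascular endothelial-like cells Adamtsl5 was 36.2 and 10.0 CPM, lower in the KO-labelled library, as were the cardiomyocyte markers there (9824 against 1983 CPM summed, all 10 detected).

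**Figure D5:**
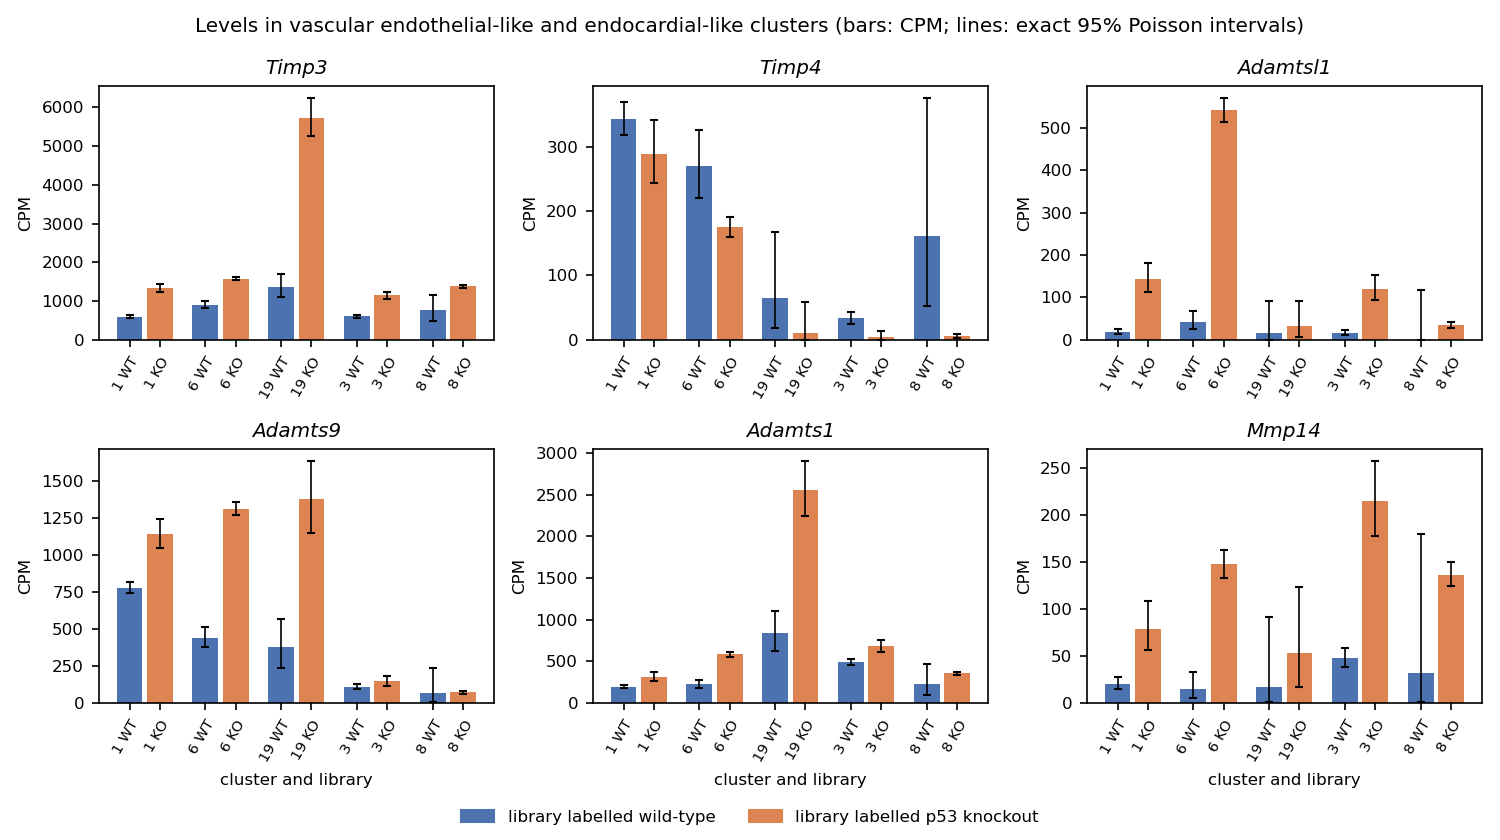
Level in CPM of 6 members in vascular endothelial-like clusters 1, 6 and 19 and endocardial-like clusters 3 and 8, with blue bars for the WT-labelled and orange for the KO-labelled library and lines for exact 95% Poisson intervals. Adamtsl1 is highest in cluster 6 of the KO-labelled library at 541 CPM, Timp3 and Adamts1 are highest in cluster 19, and Timp4 has the lower bar in the KO-labelled library in each of the 5 clusters; its bars in cluster 19 rest on 4 and 1 UMIs, and the WT-labelled bar of cluster 8 rests on 23 cells.

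The main sheddases were counted in all of the large classes. ADAM10 releases Notch and cadherin ectodomains, and ADAM17 releases tumour necrosis factor and ligands of the EGF receptor. Adam10 was 156 and 265 CPM over all cells (0.77, 0.70 to 0.84), with 124 and 148 CPM in fibroblast-like, 173 and 221 in macrophage-like and 97.5 and 92.1 in cardiomyocyte-like cells. Its highest ratio was in vascular endothelial-like cells, 219 and 436 CPM (0.99, 0.85 to 1.14). Adam17 was lower in fibroblast-like cells of the KO-labelled library, 121 and 76 CPM (-0.67, -0.88 to -0.45), and its interval spanned 0 in vascular endothelial-like cells (0.21, -0.03 to 0.45). In B-like cells Adam17 was higher, at 57 and 155 CPM on 5 and 46 UMIs (1.32, 0.12 to 3.13). Adam9 stayed within 2-fold in the 5 largest classes, for example 164 and 191 CPM in fibroblast-like cells. Adam15, an endothelial sheddase with an integrin-binding loop, was 228 and 573 CPM in vascular endothelial-like (1.33, 1.19 to 1.47) and 215 and 136 CPM in endocardial-like cells (-0.66, -0.85 to -0.47). In endocardial-like cluster 3 Adam15 was 217 and 413 CPM and in cluster 8 92 CPM in the KO-labelled library, so the order within cluster 3 was the reverse of that over the class.

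Adam12 and Adam19, close relatives with sheddase activity, differed from each other. Adam12 was higher in the KO-labelled library in fibroblast-like (12.5 and 63 CPM; 2.32, 1.87 to 2.84), vascular endothelial-like (14.4 and 69 CPM) and endocardial-like cells (7.75 and 41 CPM). Its fibroblast level was highest in cluster 15.1, at 316 CPM against 49.6 CPM in cluster 5 of the same library. Adipocyte-like cells had the highest Adam12 of any class, 701 and 455 CPM on 31 and 57 UMIs. Adam19 was 193 and 145 CPM in fibroblast-like cells (-0.42, -0.58 to -0.25) and 52.7 and 145 CPM in vascular endothelial-like cells (1.45, 1.17 to 1.75).

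Among ADAMs without the zinc-binding site of the active proteases, Adam22 and Adam23 encode receptors of LGI proteins at synapses and nerves. Adam23 was highest in the 30 and 6 Schwann-like cells, with 43 and 23 UMIs and 1474 and 2306 CPM. In mesothelial-like cells it had 1 and 82 UMIs (3.60, 1.66 to 9.50). Adam22 was 86 and 89.9 CPM in cardiomyocyte-like cells (0.07, -0.18 to 0.30) and lower in the KO-labelled library in fibroblast-like cells (46.1 and 13.8 CPM; -1.73, -2.21 to -1.30). Adam33, a gene of mesenchymal cells, was highest in mesothelial-like cells at 299 and 152 CPM (-0.98, -1.40 to -0.53). In endocardial-like cluster 3 Adam33 was 77.1 and 16.4 CPM, and in cluster 8 123 CPM.

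Adam2, the fertilin beta subunit known from sperm, had 230 UMIs. In endocardial-like cells it had 7 and 121 UMIs, 3.87 and 30.1 CPM (2.86, 1.87 to 4.30), of which 113 of the KO-labelled UMIs were in cluster 8. In cardiomyocyte-like cells the order was turned, with 54 and 3 UMIs (-2.50, -5.03 to -1.09).

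Most of the remaining members were low or differed little over all cells. Mmp28 (epilysin), highest in vascular endothelial-like cells, was 29.7 and 33.3 CPM over all cells (log2 ratio 0.17, -0.01 to 0.34). Within classes Mmp28 was negative in 4 of 5 measured, with 3 intervals below 0, from -1.73 in macrophage-like to 0.23 in endocardial-like cells. Adamts17, highest in pericyte-like cells, was 10.4 and 10.2 CPM over all cells (-0.04, -0.34 to 0.27). Within classes Adamts17 was negative in 3 of 5 measured, with 1 interval below 0, from -1.51 in cardiomyocyte-like to 0.70 in fibroblast-like cells. Adamts16 and Adamts18, named after their values were seen, had 10 and 51 UMIs (2.12, 1.18 to 3.32) and 24 and 73 UMIs (1.41, 0.75 to 2.16). Adamts19, also named after its values were seen, was lower in the KO-labelled library, at 16.8 and 10.9 CPM (-0.62, -0.89 to -0.36).

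Other genes of the same pathways, from lists chosen with earlier results of these data known, are given as counts in fibroblast-like cells, where 6.41% of all genes were at least 2-fold higher and 11.6% lower. Of 19 matrix substrates with at least 20 UMIs, 12 were at least 2-fold higher in the KO-labelled library and 0 lower, with a median log2 ratio of 1.19. Among examples named after their values were seen were Vcan, the proteoglycan versican (325 and 743 CPM), Eln, elastin (225 and 961 CPM), Fn1, fibronectin (84.4 and 872 CPM) and Comp (9.86 and 652 CPM). The list shares Col1a1, Col1a2, Col3a1 and Dcn with the fibroblast markers, and Fn1 and Comp with the activated-fibroblast genes. Comp was also a leading gene of cluster 5, which held 105 cells of the WT-labelled and 1526 of the KO-labelled library. The part of cluster make-up in these ratios was not tested. Of 15 activating and guiding proteins, 4 were higher (Plaur, Plat, Rhbdf2 and Pcsk5) and 2 lower (Pcsk6 and Tspan15). Furin, which activates MMP14 and ADAM precursors, was 47.6 and 83.2 CPM. Of 8 other metalloproteinases, Pappa was higher and Mme and Tll2 were lower, Mme at 116 and 9.59 CPM. Of 19 membrane-bound sheddase substrates, 6 were higher and 1 lower.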

How the data were processed

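Single-cell libraries of left ventricle were made with a 10x 3′ kit, per the labels' protocols. The barcodes are written in separated blocks of bases, which does not match the form of that kit, and whether cells or nuclei were used is not stated. The deposited files hold raw UMI counts per gene and barcode, and the authors' tools were Cell Ranger and Seurat on mm10, per the submitters' processing notes (no version is stated). The labels' protocols also describe an extraction of total RNA. The deposited files pair gene identifiers with symbols, and 32445 identifiers matched GENCODE.

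From the counts, barcodes with at least 200 genes and at most 50% mitochondrial UMIs were kept. The automatic doublet threshold marked 0 cells, so the 8% with the highest doublet scores were removed (1283 and 808). Cells were clustered with scanpy 1.11.5 (2000 variable genes without the members, 30 components, 15 neighbours, Leiden resolution 1), mixed clusters were split at resolution 0.5, and classes were named from 16 marker lists. Cdh19 was dropped from the Schwann list after counts were seen. UMIs were summed per class and library, with 18897913 and 20918824 UMIs in all. Intervals are exact 95% Poisson or conditional binomial. On simulated counts of fibroblast-like cells, 96.2% of intervals held the true ratio. That share bears on counting error only, since the spread between animals could not be measured. With 1 library a group no test was made. Named members were all Timp genes, those with at least 500 UMIs, the leading member of each class, and the 3 highest and 3 lowest ratios in each of the 5 largest classes. Members and lists were chosen with earlier results of these data known. The effect of 10 alternative settings is given in the closing section. A few results on other genes are not reported here.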

Additional observations from a re-analysis of the deposited data

How the results depend on the processing

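Of 66 ratios of named members that were at least 2-fold in the 5 largest classes, 656 of 660 values under the 10 alternatives had the same sign, and 600 had the same sign and were still at least 2-fold. The settings of at least 100 UMIs and of no minimum change only which genes are counted and cannot alter a ratio. Median-of-ratios scaling shifted log2 ratios by at most 0.27, too little to reverse a 2-fold ratio. Agreement in sign under these settings was fixed in advance, so the totals overstate how far the ratios were tried. The reversed values were a log2 ratio of 0.14 for Adamtsl3 in macrophage-like cells with at least 500 genes per cell, 0.75 for Adam23 in cardiomyocyte-like cells of 500 to 1500 UMIs, and, in clusters with 5% of the class in each library, -0.69 for Mmp3 in fibroblast-like and -0.66 for Adamts2 in endocardial-like cells; the cause was not tested.

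Counts of members at least 2-fold higher or lower moved by over 1.5 times as follows, and the cause was not tested except where fewer or more genes were counted by construction. With at least 100 UMIs, cardiomyocyte-like cells had 3 higher and 6 lower, fibroblast-like 9 and 3, macrophage-like 4 and 1, and vascular endothelial-like and endocardial-like cells 2 lower each. With no minimum, cardiomyocyte-like cells had 17 higher, fibroblast-like 11 lower, vascular endothelial-like 22 higher and 11 lower, endocardial-like 18 and 11, and macrophage-like 16 and 18. In cells of 500 to 1500 UMIs, 4 were higher in cardiomyocyte-like, 9 in fibroblast-like and 5 in macrophage-like cells, while 3 were lower in macrophage-like and 1 in endocardial-like cells. In clusters with 5% of the class in each library, 6 were higher in fibroblast-like, 4 in macrophage-like and 5 in endocardial-like cells, and 2 were lower in the last. With at least 500 genes per cell, 3 were lower in macrophage-like cells and 1 in endocardial-like cells. Endocardial-like cells had 2 lower at resolution 2 and 2 lower with median-of-ratios scaling, and macrophage-like cells had 5 higher with members among the clustering genes. Shares of all genes under these settings are not given here, so the counts show only how far they moved.

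No paired analysis was possible because each group is 1 library. Median-of-ratios scaling shifted the log2 ratios of all genes by 0.27 in cardiomyocyte-like and 0.11 in fibroblast-like cells relative to the CPM scale. Depth limits the low members: 17 of the 84 had under 20 UMIs, and no spread between animals is known.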
